A study of Mus musculus with 6 samples.

Results

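Gabra6, Cbln3, Cbln1, Neurod1, Zic1, Zic2, Zic4, Fat2, Pax6 and Etv1 are genes of cerebellar granule neurons, and their transcripts were followed in 6 mouse brain libraries. They are 10 of the 38087 genes of the deposited table, each matched by its gene symbol, and each symbol occurred once. The genes were chosen by their normalised counts in these libraries, above all by high values in 1 wild-type (WT) library, WT replicate 1. Its values, and the comparison of the genotypes over all 6 libraries, are therefore a description of these genes and support nothing by themselves.

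The libraries came from 3 WT mice and 3 Sgo1-/+ mice, all 24 months old and of C57BL6 background. Sgo1-/+ animals carry 1 working copy of Shugoshin 1 (Sgo1), a protein that guards the cohesion of sister chromatids in dividing cells. There was 1 male in each genotype, WT replicate 1 and Sgo1-/+ replicate 2, beside 2 females. Per the study's methods, RNA was taken from frozen cerebrum with cortex and hippocampus, and without olfactory bulb, cerebellum and medulla. All WT libraries were read in run 258 and all Sgo1-/+ libraries in run 259, so genotype and run cannot be told apart. Sgo1 itself had estimated counts of 0, 7 and 0 across the WT mice and of 4, 2 and 0 across the Sgo1-/+ mice, too few to check the genotype labels. Total estimated counts per library were 11123917 to 12505561. A library at this depth with a count of 0 may still hold up to 3 counts of a gene, and this limit covers counting error only.

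Granule neurons are the small, densely packed glutamatergic neurons of the cerebellar cortex. They receive mossy fibre input on their dendrites and send parallel fibres to Purkinje cells. They arise from progenitors of the rhombic lip that express Atoh1, pass through a stage marked by Neurod1, Pax6 and the Zic factors, and mature into cells with the GABA-A receptor subunit of Gabra6. Several of these genes are also used outside the cerebellum: Pax6 and Zic genes in olfactory bulb interneurons, Zic genes in the meninges, Neurod1 in the dentate gyrus, and Etv1 in deep layers of the cortex.

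The genes lie at separate loci of mouse mm10 (GRCm38), apart from Zic1 and Zic4. Gabra6 is on the minus strand of chromosome 11, from 42306437 to 42321072, and Fat2 is on the same strand of that chromosome, from 55250609 to 55336564. Cbln3 is on chromosome 14 from 55878920 to 55884256, minus strand, and Zic2 on chromosome 14 from 122475435 to 122479852, plus strand. Cbln1 is on chromosome 8 from 87468854 to 87472592, minus strand. Neurod1 lies on chromosome 2 from 79452521 to 79456751, minus strand, and Pax6 on chromosome 2 from 105668896 to 105703160, plus strand. Etv1 is on chromosome 12 from 38779380 to 38868215, plus strand. Zic1 (chromosome 9, 91358058 to 91365810, minus strand) and Zic4 (91362413 to 91389348, plus strand) lie on opposite strands and overlap by 3398 bases, of which 60 are exonic in both. The use of strand in counting is not given in the sources used here, so reads from those 60 bases cannot be assigned to either gene. Neurod1 likewise shares 201 of its 2729 exon bases with Cerkl on the same strand and 154 with Gm26755 on the opposite strand.

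The DNA before the starts of Gabra6 and Cbln3 is shown because these genes, with Fat2, kept 1 common order over the libraries that is described further on. Each sequence is the 250 bases upstream of the RefSeq transcription start on GRCm38.p6, 5′ to 3′ on the gene's own minus strand, at chr11:42321073-42321322 for Gabra6 and chr14:55884257-55884506 for Cbln3. Capitals mark TGCCAA, the reverse complement of TTGGCA, a half-site of nuclear factor I.
Gabra6: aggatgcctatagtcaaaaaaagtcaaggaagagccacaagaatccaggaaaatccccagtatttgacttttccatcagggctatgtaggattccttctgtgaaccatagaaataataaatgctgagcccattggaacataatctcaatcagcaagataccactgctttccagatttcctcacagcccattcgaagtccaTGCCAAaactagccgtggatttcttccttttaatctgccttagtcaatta
Cbln3: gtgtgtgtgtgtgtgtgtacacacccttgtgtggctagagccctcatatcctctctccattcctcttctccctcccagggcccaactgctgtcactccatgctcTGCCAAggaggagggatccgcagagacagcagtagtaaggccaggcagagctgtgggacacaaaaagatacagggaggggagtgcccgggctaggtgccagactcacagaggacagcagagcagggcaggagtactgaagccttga
RefSeq windows of 250 bases before to 50 bases after a start were held for 8 of the 10 genes, 10 windows in all. TTGGCA was searched on both strands and stood in 3 of the 10 windows, those of Gabra6, Cbln3 and 1 of the 2 of Etv1, and in 14.1% of all 32851 windows. CAGATG, an E-box read by NEUROD1 and ATOH1, stood in 1 of the 10 windows and in 17.2% of all. TATAAA stood in 1 of 10 and in 13.6% of all. CAGCAGG, the core of a ZIC site, stood in 1 of 10, the window of Fat2, and in 10.5% of all. The Fat2 window surrounds a RefSeq start that is 24307 bases inside the gene as the deposited table bounds it. The CAGCAGG match of Fat2 begins 22 bases after that start. These matches describe letters in the windows and were not tied to any level of RNA.

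All 10 genes were highest in WT replicate 1. Across the tested genes, 28.1% were highest in that library. In WT replicate 1, 7 of the 10 were at least 2-fold above every other library, against 1.7% of all tested genes. Both counts describe values that helped to choose the genes. The median over the 10 genes of the log2 ratio to each gene's 6-library median was 2.91 in WT replicate 1, and the ratios ran from 0.97 for Etv1 to 6.41 for Fat2. The same median was 0.21 in WT replicate 2, -0.53 in WT replicate 3, 0.04 in Sgo1-/+ replicate 1, -1.11 in Sgo1-/+ replicate 2 and 0.16 in Sgo1-/+ replicate 3. The 3 genes below 2-fold were Zic4, Pax6 and Etv1, at 1.72, 1.61 and 1.57 times the next highest library. In bulk RNA, fewer cells of a type and less RNA per cell cannot be told apart.

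**Figure D1:**
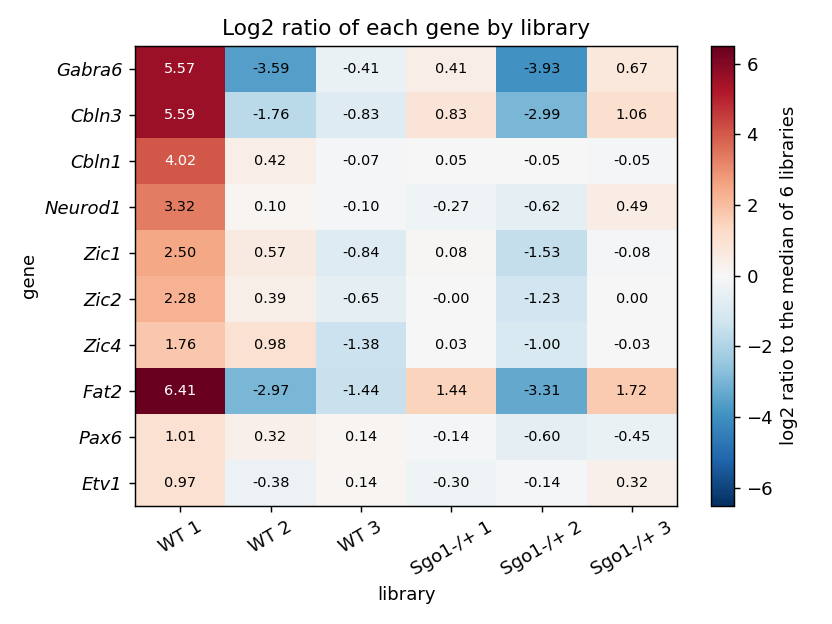
Log2 ratio of each gene (rows) in each library (columns) to the gene's median over the 6 libraries, with normalised counts under 3 set to 3 and red for values above the median. The column of WT 1 is above 0 in all 10 rows, from 0.97 to 6.41, and the lowest value is -3.93 for Gabra6 in Sgo1-/+ 2.

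Among the genes of the synapse, Gabra6 encodes the alpha 6 subunit of GABA-A receptors, which mediates tonic and Golgi cell inhibition of granule neurons. Its normalised counts (estimated counts scaled to a common library size) were 2168, 3.81 and 34.5 for WT, given in this and later sentences by replicate number, and 60.7, 0 and 72.6 for Sgo1-/+. WT replicate 1 held 92.7% of the summed level and was 29.9 times the next library. Gabra6 was at or near 0 in WT replicate 2 and Sgo1-/+ replicate 2, and the other 5 libraries of both genotypes overlapped.

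Cbln3 encodes a cerebellin that assembles with CBLN1 and is secreted by granule neurons. It stood at 4644, 28.6 and 54.3 normalised counts in the WT libraries and at 171, 12.2 and 201 in the Sgo1-/+ libraries. The value of WT replicate 1 was 23.1 times the next. Without it, both Sgo1-/+ replicates 1 and 3 were above both WT libraries while Sgo1-/+ replicate 2 was the lowest of all.

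Cbln1 encodes the cerebellin that bridges presynaptic neurexin and the delta 2 glutamate receptor of Purkinje cells. WT values were 2543, 210.1 and 149 normalised counts and Sgo1-/+ values were 162, 152 and 151. Unlike Cbln3, it changed little over the other 5 libraries, where the highest value was 1.41 times the lowest. For Cbln3 that ratio was 16.5.

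Fat2 encodes an atypical cadherin of parallel fibres. It gave 2526, 3.81 and 10.97 normalised counts in WT and 81.0, 0 and 98.2 in Sgo1-/+. WT replicate 1 held 92.9% of the summed level, the highest share of the 10 genes. Sgo1-/+ replicates 1 and 3 lay above WT replicates 2 and 3, and the count in Sgo1-/+ replicate 2 was 0.

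The transcription factors were present in every library. NEUROD1 is a basic helix-loop-helix factor of differentiating granule neurons. Neurod1 stood at 1352, 145 and 125 normalised counts in WT and at 112, 87.7 and 190.03 in Sgo1-/+. After WT replicate 1, Sgo1-/+ replicate 3 was the highest and Sgo1-/+ replicate 2 the lowest, and the genotypes overlapped.

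The Zic genes encode zinc finger factors of dorsal neural progenitors and of granule neurons. Zic1 had 3449, 900.3 and 339.7 normalised counts in WT and 645, 210.1 and 574 in Sgo1-/+. Zic2 had 812, 219.8 and 107 in WT and 167, 71.4 and 168 in Sgo1-/+. Zic4 had 261, 152 and 29.7 in WT and 78.6, 38.6 and 75.5 in Sgo1-/+. All 3 had WT replicate 2 next after WT replicate 1, and in all 3 WT replicate 3 and Sgo1-/+ replicate 2 were the lowest pair. The genotypes overlapped for all 3: WT replicate 3 was below Sgo1-/+ replicates 1 and 3 in each.

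PAX6 is a paired-box homeodomain factor kept on in adult granule neurons. Pax6 had 614, 381 and 334 normalised counts in WT and 277, 200.4 and 223 in Sgo1-/+, or 443 ± 150 (SD, n = 3) against 233 ± 39.3 (SD, n = 3). It was the 1 gene of the 10 whose groups did not overlap, and 3.57% of all tested genes had every WT library above every Sgo1-/+ library.

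ETV1 is an ETS factor induced in maturing granule neurons. Etv1 had 1434, 560.2 and 804 normalised counts in WT and 594, 664 and 911 in Sgo1-/+. It differed least between WT replicate 1 and the rest, and Sgo1-/+ replicate 3 was the next highest.

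**Figure D2:**
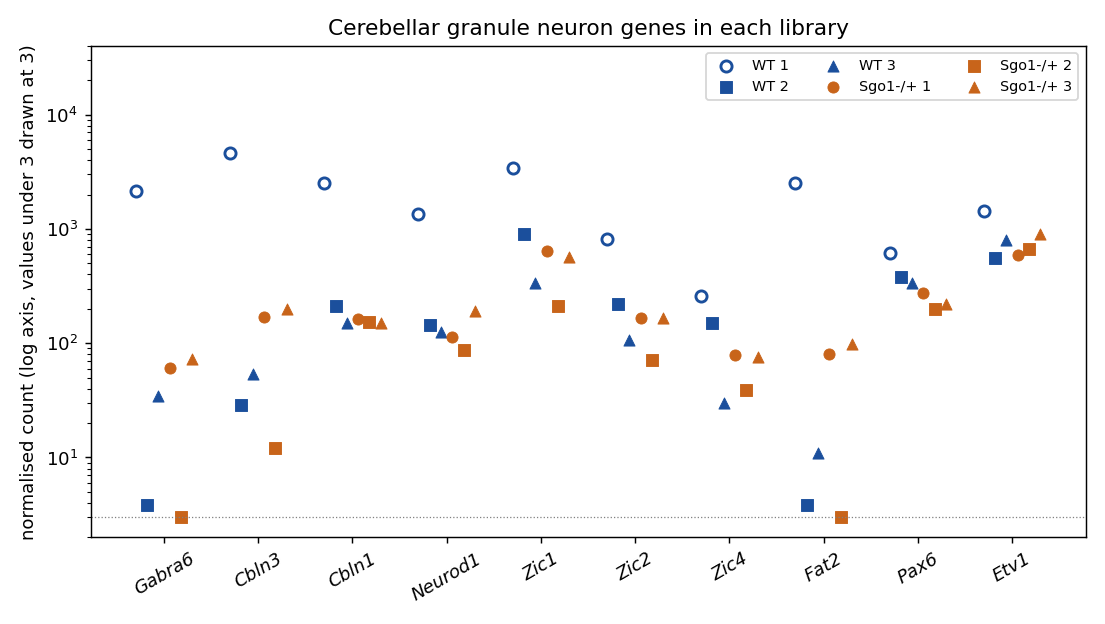
Normalised counts (log axis) of the 10 genes in the 3 WT (blue) and 3 Sgo1-/+ (orange) libraries, 1 point per library, with the open circle for WT 1 and values under 3 drawn at the dotted line. WT 1 is the highest point of every gene, while Gabra6, Cbln3 and Fat2 spread widely over the other 5 libraries and Cbln1 does not.

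Levels between genes were compared per kilobase of exon. This length counts all annotated exon bases of a gene, from 2.49 kilobases for Gabra6 to 14.5 for Fat2. Expressed transcripts may be shorter, so ranks between genes are approximate. Over the 5 libraries other than WT replicate 1, the median normalised count per kilobase was highest for Zic1 (101, range 36.9 to 158). Zic2 (58.0, range 24.8 to 76.3), Cbln1 (50.04, range 49.2 to 69.2), Etv1 (49.9, range 42.1 to 68.5) and Neurod1 (46.0, range 32.1 to 69.6) followed with overlapping ranges. Pax6 stood at 23.7 (17.1 to 32.6). Gabra6 (13.9), Cbln3 (11.2), Zic4 (7.30) and Fat2 (0.755) were the lowest, with maxima of 29.2, 41.3, 14.7 and 6.76. In WT replicate 1 the order was another: Cbln3 (954), Gabra6 (871) and Cbln1 (837) stood above Zic1 (606) and Neurod1 (495), and Zic4 was the lowest at 25.3. Of the 3 genes that led in WT replicate 1, Cbln3 and Gabra6 were among the 4 lowest genes elsewhere. Fat2 stood at 174 per kilobase in WT replicate 1.

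Outside WT replicate 1 the 10 genes did not follow 1 pattern. Gabra6, Cbln3 and Fat2 had the same order of the 5 libraries, with Sgo1-/+ replicate 3 highest, then Sgo1-/+ replicate 1, WT replicate 3, WT replicate 2 and Sgo1-/+ replicate 2. That order was found in 122 of the 16337 tested genes (0.747%), and among the other genes of the marker lists used here in Chn2 alone, which encodes a Rac-regulating chimaerin of granule neurons. For Gabra6 and Fat2 the last 2 places rest on 3.81 and 0 normalised counts, which counting error could reorder. The highest of the 5 libraries was at least 24.2-fold above the lowest for Gabra6 and at least 32.7-fold for Fat2, with the lowest set to the floor of 3 normalised counts. For Cbln1, Pax6, Zic1, Zic2 and Zic4 the highest of the 5 was WT replicate 2, and for the other 5 genes it was Sgo1-/+ replicate 3. The lowest of the 6 libraries was Sgo1-/+ replicate 2 for 7 of the 10 genes, WT replicate 3 for Cbln1 and Zic4, and WT replicate 2 for Etv1.

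The genotype comparison asked whether these transcripts differed in Sgo1-/+ brain. With all 6 libraries, 0 of the 10 genes passed an adjusted p of 0.05 in edgeR's quasi-likelihood test, and 0% of all 16337 tested genes did. At an unadjusted p under 0.05, 333 genes were called, 201 of them lower in Sgo1-/+, and DESeq2 called 3 genes after adjustment. All 10 genes had a log2 fold change below 0 for Sgo1-/+ against WT, with a median of -1.88 beside -0.0007 over all tested genes. This direction includes WT replicate 1, whose values chose the genes. The largest were -4.04 ± 2.03 (SE) for Gabra6, -3.82 ± 2.15 for Fat2 and -3.62 ± 1.90 for Cbln3, and the smallest was -0.37 ± 0.35 for Etv1. At an unadjusted p under 0.05, 2 of the 10 (Cbln1 at -2.64 ± 1.07 and Pax6 at -0.92 ± 0.26) were lower, and 1.23% of all tested genes were. Nothing is read from that count, since it rests on the library that chose the genes.

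Without WT replicate 1, the 10 genes no longer shared a direction. In the 5 remaining libraries 6 had lower and 4 higher estimates in Sgo1-/+, with a median log2 fold change of -0.13 beside 0.01 for all 16617 tested genes. None of the 10 passed the adjusted p of 0.05 in edgeR's test, as 0% of all genes did, 626 genes were under 0.05 without adjustment, and DESeq2 called 23 genes, none of them among the 10. The estimates turned to 2.99 ± 1.42 (SE) for Fat2, 1.62 ± 0.93 for Cbln3 and 1.22 ± 1.32 for Gabra6. They stood at -0.21 ± 0.19 for Cbln1, -0.06 ± 0.32 for Neurod1 and 0.08 ± 0.22 for Etv1. The Zic genes gave -0.38 ± 0.51 for Zic1, -0.27 ± 0.42 for Zic2 and -0.50 ± 0.62 for Zic4. Pax6 kept a lower estimate of -0.61 ± 0.17, with an unadjusted p of 0.00719 in edgeR's quasi-likelihood test and an adjusted p of 0.9995. It was the 1 of the 10 genes lower at an unadjusted p under 0.05, and 1.91% of all tested genes were.

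**Figure D3:**
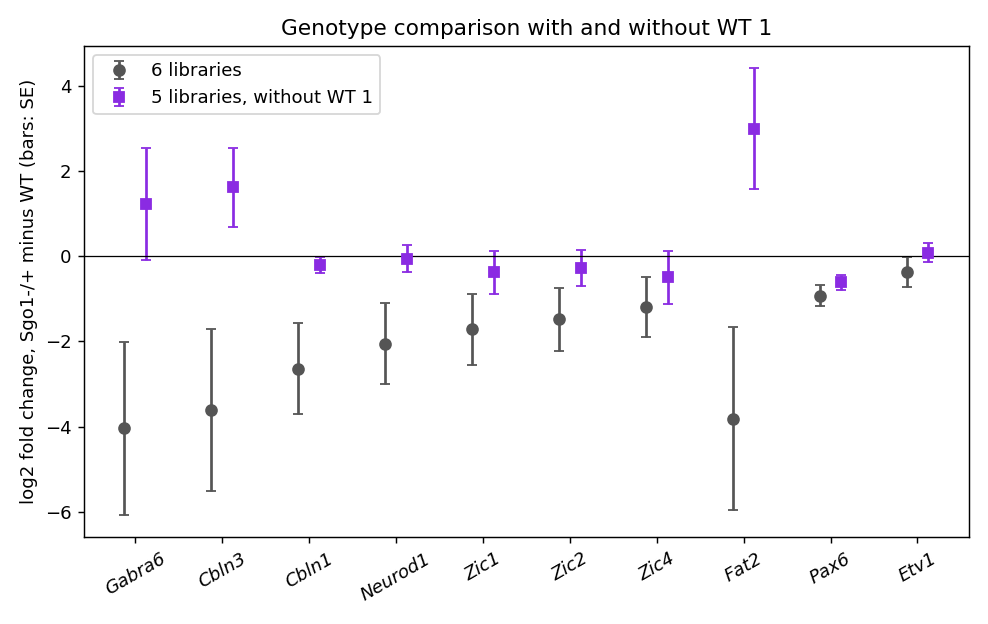
Log2 fold change of Sgo1-/+ against WT with its standard error for each gene, from 6 libraries (grey circles) and from the 5 libraries without WT 1 (purple squares). All 10 grey estimates are below 0, and without WT 1 those of Gabra6, Cbln3, Fat2 and Etv1 are above 0.

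Olfactory bulb markers moved with Pax6 in the 5 libraries other than WT replicate 1, in which Pax6 was highest and the median log2 ratio of these markers was -0.92. The summed level of the 9 markers was 704, 3043 and 2214 normalised counts in WT, and it was 1574, 600 and 295 in Sgo1-/+. All 9 were detected, and 8 of them were highest in WT replicate 2. Without WT replicate 1, 7 of the 9 were lower in Sgo1-/+ at an unadjusted p under 0.05, and 0 after adjustment. Of all tested genes, 1.91% were lower at that p. With all 6 libraries, 1 of the 9 was lower, and 1.23% of all tested genes were. Cdhr1, a cadherin of mitral and tufted cells, had 44.3, 891 and 768 normalised counts in WT and 432, 121 and 29.7 in Sgo1-/+. Pax6 had WT replicates 2 and 3 and Sgo1-/+ replicate 1 in the same first 3 places as Cdhr1 when WT replicate 1 was left aside. The part of these markers in the Pax6 values was not tested.

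Meningeal markers moved with the Zic genes in 1 library. All 8 meningeal markers were lowest in Sgo1-/+ replicate 2, where their summed level was 564 normalised counts, while it was 1523 to 2418 in the other libraries. Zic1 and Zic2 were also lowest there and Zic4 second lowest. WT replicate 2, in which the Zic genes stood next to WT replicate 1, was the highest library for 8 of the 9 olfactory bulb markers. The part of either list in the Zic values was not tested.

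Dentate gyrus markers stood high in Sgo1-/+ replicate 3, the second highest library for Neurod1. Of 7 such genes, 4 were highest there, and their summed level was 1445 normalised counts, against 525 to 714 in the other libraries apart from WT replicate 1 (1038). The part of the dentate gyrus in the Neurod1 values was not tested.

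Of 20 other granule cell genes, 12 were highest in WT replicate 1 and 10 were at least 2-fold above every other library. Crtam, which encodes an adhesion molecule, had 261 normalised counts in WT replicate 1 and 1.01 to 15.9 elsewhere. Barhl1, a homeobox factor of the granule lineage, had 104 and 0.0461 to 6.08. En2, the engrailed factor of the midbrain and hindbrain border, had 542 and 9.52 to 43.8, and Mab21l1, a gene of the Mab-21 family, had 486 and 21.5 to 35.4. Not all of the list moved this way. Slc17a7, the vesicular glutamate transporter of granule cells and of cortical neurons, had 2218 in WT replicate 1 and 9455 to 11303 elsewhere, and Gabrd, the delta subunit that partners with alpha 6, had 697 and 673 to 992. These last 2 were picked after their values were seen. Atoh1, the factor of granule cell progenitors, did not exceed 3 counts in any library. In the genotype comparison, the 17 genes that were tested had a median log2 fold change of -0.67, and 0 passed the adjusted threshold. At an unadjusted p under 0.05, 2 of them (Calb2, a calcium buffer, and Barhl2) were lower, and 1.23% of all tested genes were. Without WT replicate 1 the median was 0.0013, and Barhl2 stood at -0.86 ± 0.65 (SE). Calb2 (-1.05 ± 0.41) and Tiam1 (-0.40 ± 0.12) were then lower and Cdh15 (2.22 ± 0.67) higher at an unadjusted p under 0.05. Of all 16617 tested genes, 317 were lower and 309 higher at that p, and 0 of the list passed after adjustment.

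Most paralogs of the 10 genes did not share the rise in WT replicate 1. Of 21, 5 were highest and 8 lowest in that library, and 4 were at least 2-fold above every other library. Pax2 had 174 normalised counts in WT replicate 1 and at most 5.96 elsewhere, Pax3 33.02 and at most 3.67, and Pax7 32.9 and at most 4.09. These are paired-box factors of the midbrain, hindbrain and dorsal neural tube. Zic5 was the last of the 4, with 303 normalised counts in WT replicate 1 and 37.03 to 102 elsewhere. Gabra2 and Gabra4, which encode alpha subunits of GABA-A receptors, did not follow Gabra6. Gabra4 had 365 in WT replicate 1 and 1511 to 1944 elsewhere, and Gabra2 had 228 and 646 to 886. Cbln2 and Cbln4 stood at 298 and 231 in WT replicate 1, within or just below their ranges of 320 to 496 and 203 to 254 elsewhere. Without WT replicate 1, Fat1 (-0.42 ± 0.12, SE) and Fat4 (-0.64 ± 0.16) were lower and Etv5 (0.36 ± 0.13) was higher in Sgo1-/+ at an unadjusted p under 0.05, and none after adjustment in edgeR's test. Of all 16617 tested genes, 317 were lower and 309 higher at that p. With all 6 libraries, 16 of the 21 paralogs were tested. Fat1, Fat4 and Etv5 then stood at -0.64 ± 0.19, -0.45 ± 0.22 and 0.50 ± 0.17, of which Fat4 was not under that p. Of all 16337 tested genes, 201 were then lower and 132 higher at that p. Gabra2, the Cbln paralogs, Zic5, Fat1, Fat4 and Etv5 were named after their values were seen.

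Markers of the cerebellum and of the medulla and brain stem were high in the same library, and those of the olfactory bulb were not. All 10 Purkinje cell genes were highest in WT replicate 1, with a summed level of 37069 normalised counts against 12752 to 16427 elsewhere. Pcp2, which is almost specific to Purkinje cells in the cerebellum, had 1596 there and 11.1 to 42.0 elsewhere. All 11 medulla and brain stem genes were highest there too, at a summed 4172 against 27.7 to 66.5, and 7 of them, with Hoxa2, Hoxa3, Hoxb2, Hoxb3, Hoxb4 and Hoxb5 among these, did not exceed 3 counts in any other library. Slc6a5, the glycine transporter of inhibitory hindbrain neurons, had 2653 in WT replicate 1 and 1.01 to 40.6 elsewhere. Of 7 genes of other cerebellar cells, 4 were highest there, among them Tfap2b of interneuron progenitors (414 against 6.21 to 34.7), and Ptf1a did not exceed 3 counts in any library. By contrast 9 of 10 cerebral cortex genes were lowest there, with a summed 2780.5 against 6778 to 9091. Tbr1, a T-box factor of glutamatergic cortical neurons, had 48.7 in WT replicate 1 and 913 to 1359 elsewhere. Cerebrum is the tissue given in the study's methods, and the sum of its cortical markers was higher in the other 5 libraries than in WT replicate 1. Olfactory bulb is excluded in those methods, and its 9 markers summed to 3043 in WT replicate 2 and 2214 in WT replicate 3. The part of these marker lists in the values of the 10 genes was not tested.

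In the other 5 libraries, 2 of the 4 Purkinje cell genes with the largest log2 ratios in WT replicate 1 (Car8 and Pcp2, but neither Ppp1r17 nor Skor2) had nearly the order of Gabra6, Cbln3 and Fat2. Car8, a carbonic anhydrase-related protein of Purkinje cells, had 437, 335, 179, 113 and 76.03 normalised counts in Sgo1-/+ replicates 3 and 1, WT replicate 3, Sgo1-/+ replicate 2 and WT replicate 2. Pcp2 was highest in Sgo1-/+ replicates 1 and 3 (both 42.0), then WT replicate 3 (34.9), Sgo1-/+ replicate 2 (12.6) and WT replicate 2 (11.1). Sgo1-/+ replicates 1 and 3 and WT replicate 3 led for all 5 genes. The lowest 2 changed places between these Purkinje cell genes and the granule neuron genes. For Gabra6 and Fat2 those 2 libraries had 3.81 and 0 normalised counts, and for Pcp2 they lay close together. Counting error alone could therefore set the order of the lowest 2 for Gabra6, Fat2 and Pcp2.

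**Figure D4:**
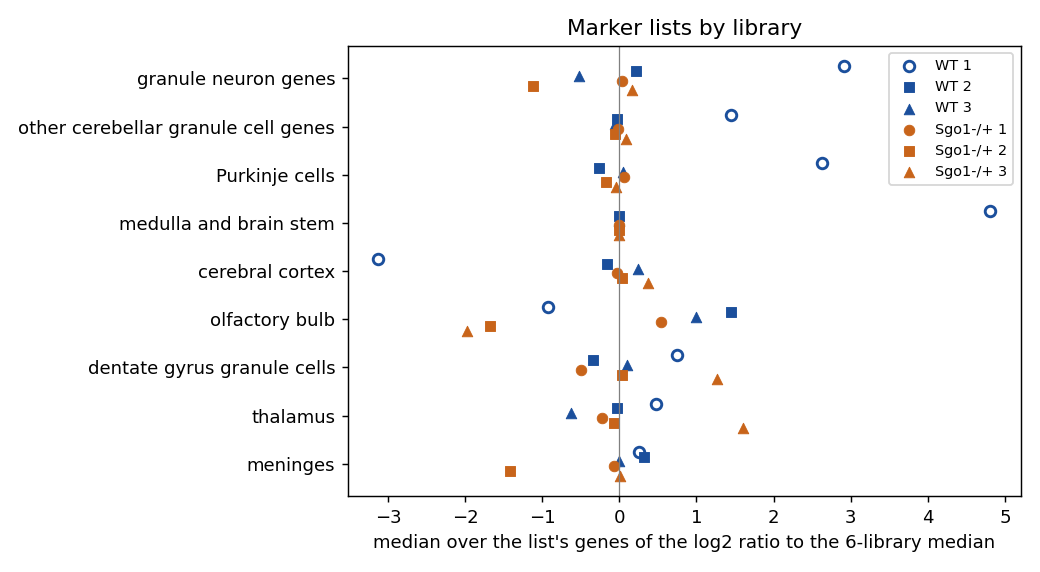
Median over each list's genes of the log2 ratio to the 6-library median (horizontal axis), 1 point per library, for the granule neuron genes and 8 marker lists. WT 1 (open circle) is highest for the cerebellar and brain stem lists and lowest for cerebral cortex, and Sgo1-/+ 2 is lowest for the meninges.

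The genes whose profile over the 6 libraries was most like the median profile of the 10 were Ret, Fam107b, Col18a1, Cep76, Ltbp2, Trim67, Kank2, Spp1, Galntl2 and Zic5. They were ranked among 12980 genes with a mean of at least 50 normalised counts by the root mean square difference of log2 ratios, which ran from 0.33 for Ret to 0.43 for Zic5. Ret, a receptor tyrosine kinase for ligands of the GDNF family, had 738, 164 and 102 normalised counts in WT and 122, 96.3 and 163 in Sgo1-/+. Zic5, which neighbours Zic2, had 303, 102 and 37.03 in WT and 65.5, 42.6 and 76.6 in Sgo1-/+. WT replicate 1 was the highest library for both, which the ranking by likeness to the 10 genes favours.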

How the data were processed

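Total RNA of brain, cerebrum per the study's methods, was sequenced with the TruSeq V2 kit on a MiSeq. There was 1 library per mouse (3 WT, 3 Sgo1-/+). Per the study's methods, reads were aligned to mm10 with Strand NGS; the submitters' processing notes also name BWA and edgeR. The authors deposited estimated counts per gene, 47.4 to 48.6% of them not whole, with the counting rule and use of strand not given in the sources used here. Their median-centred normalised values and fold changes were not used. Of 38087 gene IDs, 36308 had an exon length in the annotation.

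Counts were rounded and fitted with edgeR 4.0.16 (R 4.3.3; TMM factors 0.969 to 1.08, filterByExpr, quasi-likelihood test, Benjamini-Hochberg), after the code was tested on simulated data. DESeq2 1.42.0 and limma 3.58.1 were alternatives, with other filters, scalings, sex, a block and left-out libraries. Normalised counts are estimated counts over the TMM-scaled library size times its mean. Log2 ratios use a floor of 3. Labels do not say whether mice were littermates, while the paper calls the wild-type controls of its brain extracts littermates. The p-values set the difference between groups against the spread among these mice within groups. They cannot separate genotype from run. The 10 genes and the lists were chosen with earlier results of these data known. Genes named from a list are at most 4 by the size of their log2 ratio in WT replicate 1, and the 10 nearest profiles; exceptions are stated. Upstream sequences are from RefSeq (GRCm38.p6). Protein sequences were not used here. Some genes of the lists are not reported here by name.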

Additional observations from a re-analysis of the deposited data

How the results depend on the processing

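The log2 ratios of the 10 genes to the 6-library median moved by at most 0.01 under DESeq2's size factors and at most 0.15 with total counts. With 1 added and no floor they moved by at most 1.66, for values near 0. Each move was below the SD of the gene's log2 ratios in its group. That SD is a wide measure in WT, where it includes WT replicate 1 (4.65 for Gabra6). In the 6-library comparison, 132 of 138 log2 fold changes kept their sign. Sex as a covariate turned Cbln3 to 0.12 and Fat2 to 0.49. Leaving out each library in turn gave -4.63 to 1.22 for Gabra6, -4.20 to 1.62 for Cbln3, -4.40 to 2.99 for Fat2 and -0.63 to 0.085 for Etv1, all turned by leaving out WT replicate 1. Genes called numbered 3 with DESeq2, with its outlier filter on or off, and 0 to 1 with a library left out (1 without Sgo1-/+ replicate 2). Genes at an unadjusted p under 0.05 numbered 563 without the filter on low counts and 240 to 1040 with a library left out (1040 without WT replicate 3). Adjusted p over the 10 genes ranged from 0.764 to 1.00, and DESeq2's outlier filter gave none for Gabra6, Cbln3, Cbln1, Neurod1 and Fat2.

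Without WT replicate 1, DESeq2 called 23 genes, and a further library left out gave 0 to 1 called genes and 474 to 1198 at an unadjusted p under 0.05. These left-out fits, and DESeq2 with its outlier filter off, were added after seeing the data. Where 1 WT library remained, it was assumed to vary like the others. Gabra6 ranged from 0.37 (without WT replicate 2) to 3.50 (without WT replicate 3), Cbln3 from 1.14 to 2.16 (without Sgo1-/+ replicates 3 and 2) and Fat2 from 2.42 to 3.93 (without WT replicates 2 and 3). The ranges of the genes that changed sign were -0.44 to 0.061 for Cbln1, -0.43 to 0.16 for Neurod1, -0.91 to 0.49 for Zic1, -0.69 to 0.35 for Zic2, -1.23 to 1.13 for Zic4 and -0.15 to 0.37 for Etv1, and all 6 turned without WT replicate 2. Neurod1 also turned without Sgo1-/+ replicate 1 or 2, Zic2 without Sgo1-/+ replicate 2 and Etv1 without Sgo1-/+ replicate 3. Adjusted p ranged from 0.614 to 1.00. Same-numbered libraries correlated at -0.15, 0.01 and -0.21 in their deviations from the group mean, and differently numbered ones at -0.23 to 0.30. Deviations from a mean of 3 libraries depend on one another, so these values cannot decide whether the numbers pair the mice. With the replicate block, 0 genes were called, 280 were under 0.05 without adjustment, and Gabra6, Cbln3 and Fat2 stood at -2.37, -1.48 and -1.72. The cause of these changes was not tested. With 3 mice per group, 1 library can set an estimate.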

Other observations

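Sgo1-/+ replicate 3, which led the other 5 libraries for 5 of the 10 genes, also stood apart for other lists. Of 6 thalamus genes, 5 were highest there, and their summed level was 4792 normalised counts, with 3547 in WT replicate 1 and 986 to 1424 in the remaining libraries. The summed level of 6 oligodendrocyte genes was 140899 normalised counts in WT replicate 1 and 132920 in Sgo1-/+ replicate 3, with 53401 to 77223 elsewhere, and 5 of the 6 were highest in WT replicate 1. Without WT replicate 1, all 6 oligodendrocyte genes were higher in Sgo1-/+ at an unadjusted p under 0.05 in edgeR's test, and none after adjustment. Of all 16617 tested genes, 309 were higher at that p. With all 6 libraries, 0 of the 6 and 132 of all 16337 tested genes were. The median log2 fold change of the 6 was then 0.21 instead of 0.87.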
